A study of Mus musculus with 48 samples.

Results

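CHD4 occupancy was compared between wildtype mouse embryonic stem cells and cells that lack Zfp131, with 2 chromatin immunoprecipitation sequencing (ChIP-seq) libraries of each, which are 4 of the 48 samples of the series. The measurements are the authors' deposited table of 16322 regions for this contrast, with 1 fold change per region, and the lists of CHD4 binding events in each genotype, and all regions of the table were used. Wildtype was the line Ainv15(iCre). The knockout was Ainv15(iZfp131-HA Zfp131KO), in which an HA-tagged ZFP131 can be induced by doxycycline. Both were grown for 3 days without doxycycline, in medium with LIF and without the 2i inhibitors, and both were crosslinked with disuccinimidyl glutarate and formaldehyde before precipitation with an antibody to CHD4. Each genotype is represented by 1 line, so the loss of Zfp131 and other differences between the lines cannot be told apart. The labels do not say that the paired libraries are separate cultures, so p-values reflect how far paired libraries differ, possibly for technical reasons alone.

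CHD4 is the ATP-dependent nucleosome remodeller of the NuRD complex, which joins remodelling to the histone deacetylases HDAC1 and HDAC2. In embryonic stem cells NuRD occupies active promoters and enhancers, where it is known to adjust transcription and to be needed for exit from self-renewal. ZFP131 is a zinc finger protein with a BTB domain, as is ZBTB11, the other factor deleted in the series. Histone H3 lysine 27 acetylation (H3K27ac) marks active enhancers and promoters, and H3K4me3 marks promoters.

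The wildtype libraries held 15.2 M and 13.7 M reads and the Zfp131KO libraries 13.9 M and 16.1 M, per the headers of the event lists. The same headers give a signal fraction of 6.6% and 7.1% in wildtype against 8.1% and 9.4% in Zfp131KO, so both knockout libraries had the higher fraction. Events and their reads were called on pooled libraries, so every read number below is 1 value per genotype without a spread, and a region without an event has no listed reads rather than none. The deletion could not be checked with CHD4, because no CHD4 region lay inside Zfp131 (chr13:119765186-119791477) and the nearest was 26309 bp from an end of the gene. The deposited Zfp131KO event list of CHD4 was identical to that filed for SIN3A. All of its events lay inside regions of the CHD4 table against 49.4% inside regions of the SIN3A table, and it was used here as the CHD4 list.

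Regions were called at a Benjamini-Hochberg adjusted p under 0.05 in the authors' deposited DESeq2 table, where positive values are higher in Zfp131KO. Of 16322 regions, 2633 were called (16.1%). They divided almost evenly into 1314 higher in the knockout (8.05%) and 1319 lower (8.08%). The division differed by position, and promoter regions mostly carried less CHD4 and distal regions more. The promoters below show the DNA around 6 transcription starts at which CHD4 was called different, with the centre of the CHD4 region within 250 bases of the start. They were chosen as examples after their values were seen. All are among the most extreme called promoters named below, but none has the highest or the lowest fold change. Each is 300 bases, 250 before to 50 after a RefSeq start in GRCm38.p6, the same assembly as mm10, and CG dinucleotides are in capitals.

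The first 4 carried less CHD4 in Zfp131KO: Meis3, a homeobox gene, at chr7:16175145-16175444 on the plus strand with 21 CG, Lexm at chr4:106617189-106617488 on the minus strand with 16, Disc1, a scaffold protein gene, at chr8:125053945-125054244 on the plus strand with 33, and Spink2, a serine protease inhibitor gene, at chr5:77211156-77211455 on the minus strand with 9. The last pair carried more: Camk1d, a calcium/calmodulin-dependent kinase gene, at chr2:5675997-5676296 on the minus strand with 5 CG, and Enpp4, an ectonucleotide pyrophosphatase family gene, at chr17:44105760-44106059 on the minus strand with 41. Of all promoters of the RefSeq table, 4.48% have as many CG as Enpp4 or more, and 71.6% have as many as Camk1d or more.
Meis3: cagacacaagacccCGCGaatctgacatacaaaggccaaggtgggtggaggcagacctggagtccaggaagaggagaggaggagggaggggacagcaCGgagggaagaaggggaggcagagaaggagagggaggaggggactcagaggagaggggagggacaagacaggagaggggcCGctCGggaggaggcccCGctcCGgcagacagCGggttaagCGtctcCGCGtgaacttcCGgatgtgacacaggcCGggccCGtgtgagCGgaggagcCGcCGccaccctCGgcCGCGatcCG
Lexm: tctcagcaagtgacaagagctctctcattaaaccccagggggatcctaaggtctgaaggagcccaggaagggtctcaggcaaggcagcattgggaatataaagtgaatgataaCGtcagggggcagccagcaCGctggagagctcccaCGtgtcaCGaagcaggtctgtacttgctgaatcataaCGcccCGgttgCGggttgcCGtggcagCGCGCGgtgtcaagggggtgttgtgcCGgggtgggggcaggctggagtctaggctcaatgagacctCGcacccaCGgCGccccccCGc
Disc1: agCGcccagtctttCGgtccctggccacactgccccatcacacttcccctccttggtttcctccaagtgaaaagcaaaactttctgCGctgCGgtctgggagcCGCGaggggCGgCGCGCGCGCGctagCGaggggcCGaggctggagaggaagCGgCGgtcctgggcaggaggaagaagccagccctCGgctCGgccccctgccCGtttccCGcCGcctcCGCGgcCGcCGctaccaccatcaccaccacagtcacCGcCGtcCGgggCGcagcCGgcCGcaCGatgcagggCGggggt
Spink2: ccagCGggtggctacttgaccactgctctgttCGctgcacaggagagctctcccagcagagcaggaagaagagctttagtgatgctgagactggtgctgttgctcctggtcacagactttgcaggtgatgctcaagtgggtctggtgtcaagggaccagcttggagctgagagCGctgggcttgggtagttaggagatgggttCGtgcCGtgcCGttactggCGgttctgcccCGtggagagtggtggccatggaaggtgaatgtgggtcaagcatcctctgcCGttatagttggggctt
Camk1d: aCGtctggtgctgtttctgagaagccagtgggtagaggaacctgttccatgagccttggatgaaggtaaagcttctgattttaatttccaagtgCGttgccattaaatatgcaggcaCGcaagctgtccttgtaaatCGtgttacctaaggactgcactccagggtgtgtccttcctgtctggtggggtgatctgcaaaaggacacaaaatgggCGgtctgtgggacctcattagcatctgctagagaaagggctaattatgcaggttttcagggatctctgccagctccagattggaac
Enpp4: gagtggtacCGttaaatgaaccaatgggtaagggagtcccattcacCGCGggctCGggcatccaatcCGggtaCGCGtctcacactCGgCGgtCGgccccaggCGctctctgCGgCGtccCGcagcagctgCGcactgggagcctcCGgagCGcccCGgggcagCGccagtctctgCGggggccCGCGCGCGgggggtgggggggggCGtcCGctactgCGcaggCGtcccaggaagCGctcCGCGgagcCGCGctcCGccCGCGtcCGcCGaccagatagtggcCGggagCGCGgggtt
These examples differ in CG within each direction. Over all genes whose promoter sequence was matched, the median number of CG was 19 at the 159 genes with less CHD4 (quartiles 14 and 30), 24 at the 9 with more, and 24 at the 2690 not called (quartiles 16 and 33). The 21262 protein-coding starts of the table had a median of 13, so promoters with a CHD4 region had more CG than promoters at large.

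Promoter regions had their centre within 1 kb of a RefSeq start. For genes without a listed start, a gene end within 1 kb of a wildtype H3K4me3 domain was used in its place. There were 4378 promoter regions, 42 called higher and 237 lower in Zfp131KO. Distal regions lay over 1 kb from every start and gene end and outside wildtype H3K4me3 domains, and of 8653 there were 1089 called higher and 869 lower. The median log2 fold change was -0.25 at promoter regions (quartiles -0.55 and 0.06) and 0.31 at distal regions (quartiles -0.31 and 0.80). Of promoter regions 29.0% had a positive fold change, and of distal regions 64.6%. The 3168 remaining regions, near gene ends or inside H3K4me3 domains but away from starts, had 131 called higher and 212 lower, with a median of -0.14. Regions of chromosome 10 from 58 to 68 Mb were kept out of these classes.

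**Figure D1:**
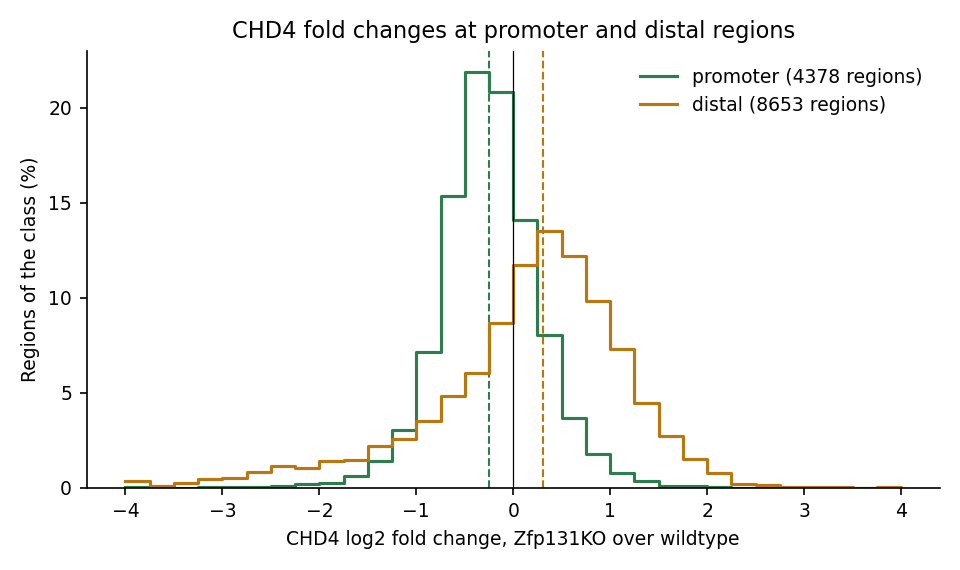
Distribution of the deposited CHD4 log2 fold change, Zfp131KO over wildtype, on the x axis and the percent of the regions of a class on the y axis, for 4378 promoter and 8653 distal regions, with dashed lines at the medians and with values beyond 4 in either direction placed in the outermost bins. Promoter regions form a narrow peak below 0 (median -0.25), and distal regions a wide one centred above 0 (median 0.31) with a long tail to the left.

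The zero point of these fold changes depends on how the libraries were scaled, which the sources used here do not state. At 4018 regions with 1 event in each genotype, the ratio of reads per M total reads was higher than the deposited fold change by a median of 0.26 on the log2 scale. With that shift added to every region and p-values recomputed, the promoter median moved from -0.25 to 0.00 and the distal median from 0.31 to 0.56. The share of promoter calls that were higher was 15.1% as deposited, 14.2% with fold changes centred on the median of all regions and 57.8% after the shift (111 higher, 81 lower), so the direction at promoters turned with the scaling. The share of distal calls that were higher was 55.6%, 54.2% and 75.2% (2027 higher, 667 lower) in the same order. Over all regions outside the chromosome 10 interval it was 48.9%, 47.0% and 74.3% (2431 higher, 839 lower). A shift of all regions leaves the gap between the promoter and distal medians as it is.

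Most calls came from regions with an event listed in 1 genotype only, and the listing and the fold change rest on the same reads. Of regions listed in wildtype only 0.257% had a positive fold change, and of those listed in Zfp131KO only 86.6%. Events of both genotypes were present in 4586 regions (28.1%), of which 39 were called higher and 109 lower, and 97.0% of the regions called higher had an event in Zfp131KO only. At the 1583 distal regions with an event in both, the median fold change was -0.13 as deposited and 0.13 after the shift, with 29 called higher and 40 lower, so the positive distal median came from the 5380 distal regions listed in Zfp131KO alone (median 0.66, 1060 called higher). The 1690 distal regions listed in wildtype alone had a median of -1.23 and 829 called lower. At the 1919 promoter regions with an event in both, the median was -0.31 as deposited and -0.05 after the shift, with 4 called higher and 46 lower. In these regions too the distal median stood above the promoter median.

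The event lists gave the same order of classes from read numbers alone. Wildtype had 7699 CHD4 events, 36.0% at promoters and 45.2% distal, and Zfp131KO had 12504, 25.8% at promoters and 59.6% distal. Promoter events numbered 2768 in wildtype and 3232 in Zfp131KO, and distal events 3483 and 7447, with no replicate lists to give an error. Of wildtype events, 54.5% had a Zfp131KO event within 500 bp, and of Zfp131KO events 34.2% had a wildtype one. Sharing was more frequent at promoters, with 63.5% of wildtype and 55.3% of Zfp131KO events, than at distal sites, with 47.2% and 22.7%. At shared events the median log2 ratio of reads per M total reads, Zfp131KO over wildtype, was -0.05 at 1757 promoter events (quartiles -0.26 and 0.18) and 0.12 at 1643 distal events (quartiles -0.12 and 0.41). Scaled instead by the summed reads of the listed events, 15910 per M in wildtype and 27430 in Zfp131KO, which also grow with the number of events listed, these medians were -0.83 and -0.66. Scaled by the signal fraction in the headers, an alternative added after seeing the data, they were -0.42 and -0.25. Either scaling turns the distal direction and leaves the order.

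Among distal regions, those farther from genes were more often called higher. Of 2595 regions between 1 and 5 kb from a gene end or start, 10.3% were called higher and 10.9% lower, with a median of 0.19. Of 462 regions between 50 and 100 kb away, 18.6% were called higher and 10.8% lower, with a median of 0.50. Of 219 regions beyond 100 kb, 32.4% were called higher and 6.39% lower, with a median of 0.82. The shares called higher at 5 to 20 kb and 20 to 50 kb were 12.1% and 13.0%, between those of the nearer and farther regions.

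By gene, 3583 protein-coding genes had a promoter region, of which 15 were called higher (0.419%) and 196 lower (5.47%), with a median of -0.28. Values here are from the authors' deposited table with its standard errors, and the genes named are those with at least the median mean signal and the most extreme fold changes. The promoter region of Trim36, a ubiquitin ligase gene, had the highest fold change, 2.18 ± 0.43 (SE, adjusted p = 2.43e-05), with 94.4 reads listed in Zfp131KO and no event in wildtype. Rnf125, which encodes another ubiquitin ligase, had 367 reads in Zfp131KO, no wildtype event and a fold change of 1.44 ± 0.19 (adjusted p = 8.91e-11). Both genes lie on chromosome 18. Tm7sf3 (1.41 ± 0.30), the arginine methyltransferase gene Prmt6 (1.21 ± 0.33), Camk1d (1.21 ± 0.38), Enpp4 (0.97 ± 0.32), Klhdc7a (0.78 ± 0.26) and Fubp3 (0.72 ± 0.27), a gene for a single-stranded nucleic acid binding protein, were also called higher, and none had a wildtype event. The Camk1d and Enpp4 promoters printed above, poor and rich in CG, both carried more CHD4.

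On the lower side, the promoter region of Rhou, a small GTPase gene, had 73.6 reads in wildtype, no event in Zfp131KO and a fold change of -2.16 ± 0.42 (adjusted p = 2e-05), although its centre was 958 bp from the start. Serf1 followed with -1.53 ± 0.38, then Meis3 with -1.51 ± 0.41 (76.3 wildtype reads), Lexm with -1.46 ± 0.40 and Slc35g2 with -1.45 ± 0.39. Acad9, an acyl-CoA dehydrogenase gene that also serves complex I assembly, and Sdc1, the gene of the heparan sulfate proteoglycan syndecan-1, each had -1.44. Disc1 had -1.44 ± 0.40 and Spink2 -1.42 ± 0.40. The divergent starts of Slc30a7, a zinc transporter gene, and Extl2, a glycosyltransferase gene, shared 1 region. Its centre lay inside Extl2, 383 bp and 340 bp from the 2 starts, and it fell by 1.42 ± 0.35 on the log2 scale. Pigg, a gene of glycosylphosphatidylinositol anchor synthesis, had -1.42 ± 0.40, the region shared by Bnipl and Gm128 had -1.34 ± 0.36, and Limd2 had -1.29 ± 0.36. None of these regions had a listed event in Zfp131KO.

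The promoters with most wildtype reads were mostly not called. Polr2e, which encodes a subunit of RNA polymerases, had the most, 317 reads in wildtype and 220 in Zfp131KO, and was called lower with -0.86 ± 0.18 (adjusted p = 8.54e-05). Cnn2, Mllt6, Gpcpd1, Piezo1, Ctnnb1 and Ocel1, also among those with most wildtype reads, were not called and ranged from -0.48 ± 0.19 at Cnn2 to 0.13 ± 0.17 at Gpcpd1. The promoter of Chd4 itself had 61.3 wildtype and 58.9 Zfp131KO reads and a fold change of -0.44 ± 0.33, which did not pass the test (adjusted p = 0.363). Zbtb11 had 0.29 ± 0.45 (adjusted p = 0.699).

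Distal regions were named by the nearest gene within 100 kb, which says nothing of which gene they act on. Of 7840 such regions, 899 were called higher (11.5%) and 806 lower (10.3%), with a median of 0.28. In the rankings that follow, each gene counts only with its distal region of highest mean signal. The highest fold change among those with at least the median mean signal was at chr1:6447935-6448435, 39046 bp from the zinc finger gene St18, with 110 Zfp131KO reads and 2.88 ± 0.48 (adjusted p = 4.84e-07). A region inside Dusp16, a gene for a phosphatase of MAP kinases, at chr6:134804818-134805318 had 235 Zfp131KO reads and 2.50 ± 0.28 (adjusted p = 5.49e-15). Regions near Rgs20, a regulator of G protein signalling (2.55 ± 0.41), Mab21l3 (2.53 ± 0.33), the olfactory receptor gene Olfr19 (2.43 ± 0.41), Ttc7b (2.20 ± 0.40), the stress-response gene Sesn1 (2.16 ± 0.40), Inhbb, which encodes an activin subunit (2.13 ± 0.40), Gm10778 (2.06 ± 0.34) and the adenylate kinase gene Ak4 (2.05 ± 0.36) followed, and none had a wildtype event. H3K27ac was tested at 8 of these 10 and was called higher at 7, with 1.89 ± 0.40 at Dusp16 and 2.86 ± 0.35 at Ak4. It was not called at St18 (3.63 ± 2.63).

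Ranked in the same way, with at least the median mean signal, the lowest fold change was inside Wars2, a mitochondrial tryptophanyl-tRNA synthetase gene. This region, chr3:99208467-99208967, had 87.3 wildtype reads, no event in Zfp131KO and -3.24 ± 0.43 (adjusted p = 8.91e-11). Next came regions near Pou2f1, which encodes the POU factor OCT1 (-2.89 ± 0.49, inside the neighbouring gene Cd247), near the forkhead gene Foxa3 (-2.66 ± 0.42) and near the amino acid transporter gene Slc38a4 (-2.54 ± 0.40). Gm6588 (-2.45 ± 0.43), Aftph (-2.42 ± 0.43), Commd7 (-2.36 ± 0.41), the mitochondrial exonuclease gene Mgme1 (-2.30 ± 0.40) and the sorting nexin gene Snx2 (-2.28 ± 0.44) were also among the 10 lowest of this ranking. Regions next to Tubb3, described below, also passed the signal limit and reached -2.79 ± 0.34. They do not enter the ranking because another region near that gene had more signal. Regions of weaker signal reached lower values, some of them given below. Foxa3 is among the transcription factors of endoderm.

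Distal regions near genes of primitive endoderm, the extraembryonic lineage set up by GATA4, GATA6 and SOX17, were often called lower in Zfp131KO. Of 48 distal regions nearest to 15 genes of this list, 24 were called lower and 1 higher, against 10.3% and 11.5% of all distal regions near genes. Their median was -1.34, and -1.08 after the shift to total reads. All 3 regions near Gata4 were called lower. The one at chr14:63231102-63231602 had 48.4 wildtype reads and -2.91 ± 0.58, and the others had 44.1 and 35.8 wildtype reads with -2.70 ± 0.56 and -4.07 ± 0.81. None of the 3 had an event in Zfp131KO.

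The laminin genes, which encode basement membrane subunits, gave further regions called lower. The lowest adjusted p of the list was near Lamc1 at chr1:153356295-153356795, with 77.1 wildtype reads and -3.98 ± 0.55 (adjusted p = 3.52e-10). Further regions near Lamc1 were called lower (-1.45 ± 0.45 and -1.85 ± 0.39), and others were positive and not called (0.22, 0.30, 0.84 and 1.07). Of 7 regions near Lamb1, 4 were called lower, from -2.70 ± 0.54 to -1.74 ± 0.44, and 1 region near Lama1 had -1.34 ± 0.43. The single regions near Dab2, an endocytic adaptor gene (-4.11 ± 0.81), near Cubn, a gene of an endocytic receptor (-1.83 ± 0.49), near Sox17 (-2.44 ± 0.68) and near Foxa2 (-1.77 ± 0.51) were called lower as well. Near the matrix gene Sparc 3 of 8 regions were called lower, and near the endocytic receptor gene Lrp2 2 of 4.

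Gata6 had a region at 45772 bp called lower (-1.55 ± 0.48) and another at 74728 bp called higher (2.08 ± 0.47), which was the only region of the list called higher. The regions near Col4a1, Col4a2 and Hnf4a were not called. Events were listed at 38 of the 48 regions in wildtype, at 16 in Zfp131KO and at 6 in both. H3K27ac had a value at 23 of them and was called lower at 10 and higher at 3, with a median of -1.51, against 14.3% lower and 15.8% higher of all 69018 H3K27ac regions. Of all distal CHD4 regions with an H3K27ac value, 8.84% were called lower for it where CHD4 was not called. The share was 67.6% where CHD4 was called lower. None of the 48 regions had a ZFP131 event, and 1 had a ZBTB11 event. Such events are rare at distal regions, with 33 and 251 of all 8653 holding one. The deposited table of CHD4 in Zbtb11KO cells, which shares the wildtype CHD4 libraries, held values at 39 of these regions, 6 called lower and 1 higher with a median of -0.67, against 2.82% lower and 9.38% higher of all its regions. At promoters, 8 genes of the list had a region and none was called. Of all genes with a promoter region, 0.419% were called higher and 5.47% lower. In bulk chromatin, less CHD4 per cell and fewer cells of a lineage that carries it cannot be told apart.

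Most distal regions near pluripotency genes, 60 of 72 near 21 genes, were not called. Of the 72, 11 were called higher (15.3%) and 1 lower (1.39%), against 11.5% and 10.3% of all distal regions near genes, so the share called higher was near that of all such regions. Their median was 0.36, against 0.28, or 0.62 after the shift. The region called higher near Nanog at chr6:122690482-122690982 had 58.3 Zfp131KO reads and 1.48 ± 0.42 (adjusted p = 0.00675), and the 6 other regions near Nanog, which encodes a homeobox factor of the pluripotency network, ranged from -0.53 to 0.78 and were not called. Near Esrrb, an orphan nuclear receptor gene, 3 of 9 regions were called higher (0.78 ± 0.27, 1.07 ± 0.30 and 1.30 ± 0.44), all 3 inside the gene between 86498615 and 86503028 on chromosome 12. Near Klf4, a Krüppel-like factor gene, 2 of 4 were called higher (1.05 ± 0.32 and 1.38 ± 0.47). Single regions near Zfp42 (1.71 ± 0.52), Sall4 (1.26 ± 0.47), Dppa5a (1.09 ± 0.41), Prdm14 (1.06 ± 0.39) and Tfcp2l1 (0.99 ± 0.30) were called higher. The region inside Lin28a, an RNA-binding protein gene, was called lower (-1.62 ± 0.44).

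None of the 4 regions near Sox2 (0.85 to 0.89), the 12 near Tbx3 (-0.73 to 1.12) and the 2 near Pou5f1 (-0.25 and -0.15) was called. Events were listed at 22 of the 72 regions in wildtype, at 67 in Zfp131KO and at 17 in both. H3K27ac had a value at 42 and was called higher at 20 and lower at 3, with a median of 0.85, against 15.8% higher and 14.3% lower of all H3K27ac regions. The nearer comparison is all distal CHD4 regions with a value. There H3K27ac was called higher at 33.2% and lower at 8.84% where CHD4 was not called (median 0.59), and higher at 76.3% where CHD4 was called higher. In the Zbtb11KO table with its shared wildtype libraries, 37 of these regions had a median of 0.62, with 10 called higher and 1 lower, against 9.38% and 2.82% of all its regions. At promoters, 9 pluripotency genes had a CHD4 region and none was called. The shares over all genes with a promoter region were 0.419% higher and 5.47% lower.

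**Figure D2:**
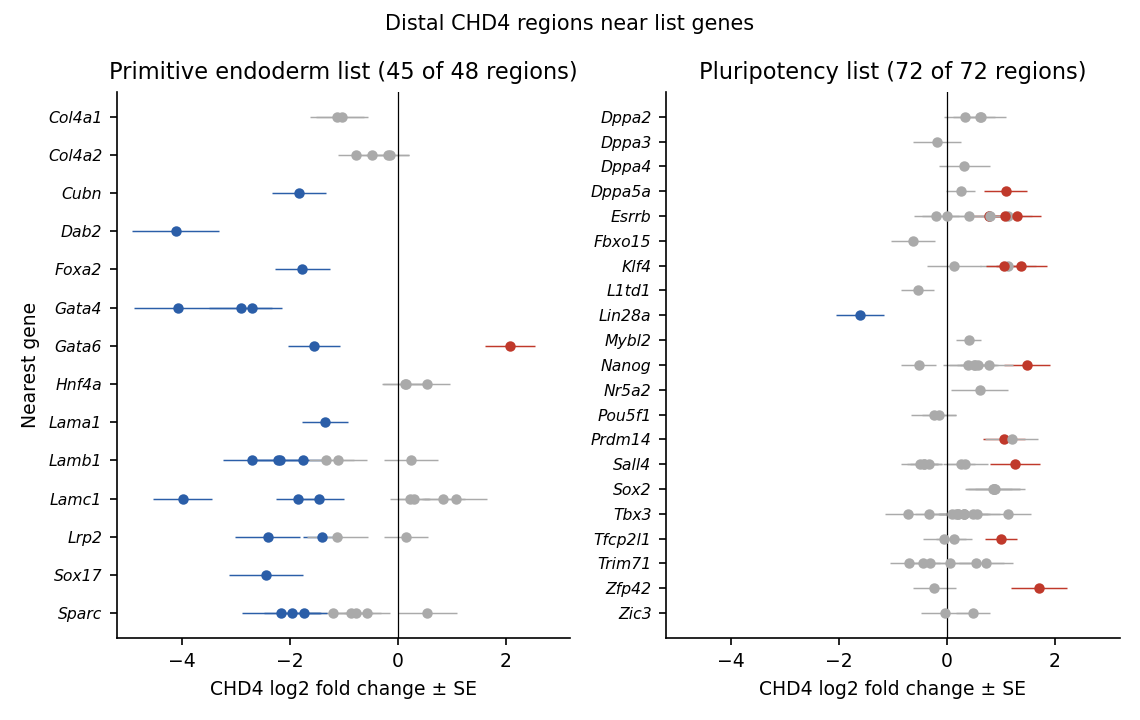
Deposited CHD4 log2 fold change, Zfp131KO over wildtype, with its standard error for each distal region, on the x axis, by the nearest gene, on the y axis, for the primitive endoderm list (left, 45 of its 48 regions drawn) and the pluripotency list (right, 72 regions), with regions called higher in red, called lower in blue and not called in grey. On the left 21 of the regions drawn are called lower and 1 higher, while most on the right are not called (60), with 11 called higher and 1 lower.

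The other gene lists gave few calls. Of the 126 genes of the 18 lists with a promoter region, none was called higher and 3 were called lower (2.38%), against 0.419% and 5.47% of all genes with a promoter region. These were Mixl1, a homeobox gene of mesendoderm (-0.99 ± 0.34, with 58.9 and 48.2 reads in wildtype and Zfp131KO), the imprinted growth factor gene Igf2 (-1.40 ± 0.42) and Mrpl23, a mitochondrial ribosomal protein gene (-1.02 ± 0.32). The 11 immediate early genes with a promoter region had a median of -0.52, or -0.34 with regions within 2 kb of a start, with -1.01 ± 0.53 at Jun and -0.72 ± 0.31 at Zfp36, and none was called. The 7 NuRD genes with a promoter region, Mta1 (-0.95 ± 0.39) and Gatad2a (-0.62 ± 0.39) among them, had a median of -0.30 and a highest value of -0.11, which the shift of 0.26 turns positive, and none was called. Of 39 Hox genes, 7 had a promoter region, with a median of 0.21 and none called. Of the fibroblast markers only Fbn1 had one (0.24 ± 0.49, not called).

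At distal regions near the other lists, calls were scattered. Near Etv5, an ETS factor gene of the formative state, 3 regions were called higher, of 11 near the formative and primed list, and the lowest adjusted p was at 1.12 ± 0.26. Of 15 regions near the Wnt list, 4 were called lower, near Dkk1 and Wnt3, and 1 higher, near Tcf7l1. Over all distal regions near genes the shares were 11.5% higher and 10.3% lower. The neural list had 14 of 23 called lower, all of them in the stretch next to Tubb3 described below, and without that stretch 2 of 9 were called higher, none lower, and the median was 0.51.

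H3K27ac in Zfp131KO, measured in libraries of its own, differed in the same direction as CHD4. A value exists only where a region overlapped an H3K27ac domain of either genotype. At distal regions with more CHD4, 587 of 1089 had one, 76.3% of these were called higher for H3K27ac and none lower, and the median was 1.38 (quartiles 1.01 and 1.89). At distal regions with less CHD4, 188 of 869 had one, 67.6% were called lower and 0.532% higher, and the median was -1.91. At distal regions where CHD4 was not called, the median was 0.59, with 33.2% called higher and 8.84% lower. Promoter regions followed the same order, with a median of 1.41 at the 32 with more CHD4 and a value, -0.16 where it was not called and -0.71 at the 157 with less. The difference was larger at distal regions with less CHD4 than at promoters with less.

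**Figure D3:**
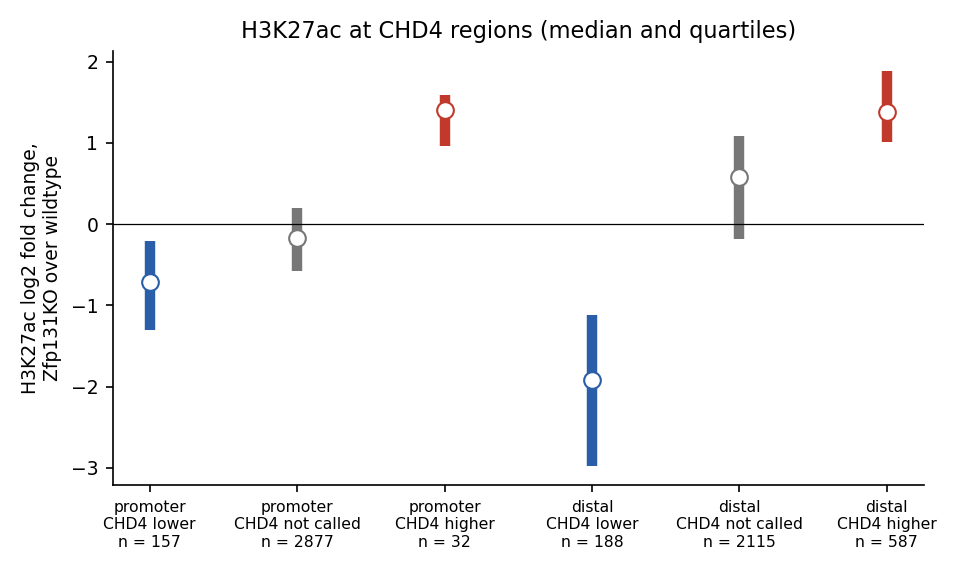
Median (circle) and quartiles (bar) of the deposited H3K27ac log2 fold change, Zfp131KO over wildtype, on the y axis, at promoter and distal CHD4 regions called lower, not called or called higher for CHD4, on the x axis, where n is the number of regions with an H3K27ac value. The medians run from -0.71 through -0.16 to 1.41 at promoters and from -1.91 through 0.59 to 1.38 at distal regions.

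In wildtype the distal classes carried H3K27ac domains about equally often when any overlap counted. A wildtype H3K27ac domain overlapped 22.0% of distal regions with more CHD4 (Wilson 95% interval 19.7 to 24.6), 21.5% of those with less (18.9 to 24.4) and 22.1% of those not called. With the region centre inside the domain, the wildtype shares were 9.28%, 5.64% and 9.80% in the same order, lowest where CHD4 was lower. In Zfp131KO a domain overlapped 53.2% (50.2 to 56.1), 2.19% (1.40 to 3.39) and 26.1% in the same order. Intervals cover counting error only. Read the other way, 35.2% of the 985 distal regions with an H3K27ac domain in Zfp131KO only were called higher for CHD4 and 0.102% lower. Of the 545 with a domain in wildtype only, 1.47% were called higher and 31.0% lower. Of the 5763 with no domain, 8.71% were called higher and 11.8% lower. Regions with no domain in either genotype thus held 502 of the 1089 distal calls of more CHD4 and 681 of the 869 of less.

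Where CHD4 events were listed in both genotypes, the order by H3K27ac was the same and the distances were smaller. The CHD4 median was -0.42 at 135 distal regions with a wildtype domain only, 23 of them called lower and none higher, and 0.12 at 64 regions with a Zfp131KO domain only, 6 called higher and none lower. It was 0.01 at 267 regions with a domain in both and -0.13 at 1117 with none.

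**Figure D4:**
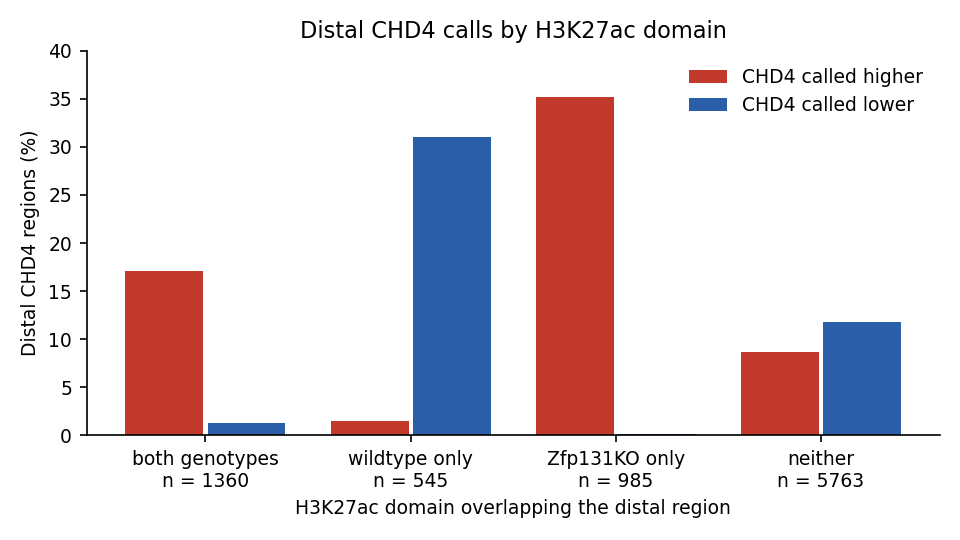
Percent of distal CHD4 regions called higher (red) and called lower (blue) in Zfp131KO, on the y axis starting at 0, by the genotype in which an H3K27ac domain overlapped the region, on the x axis. Regions with a domain in Zfp131KO only hold the largest share called higher (35.2%), and regions with a domain in wildtype only the largest share called lower (31.0%).

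Wildtype SIN3A, polymerase II, NELF and SETD1A separated the distal classes more than H3K27ac did, and for ZBTB11 the intervals overlapped. SIN3A, a corepressor scaffold, had a wildtype event at 35.6% of distal regions with more CHD4 (interval 32.8 to 38.5), 11.9% of those with less (9.87 to 14.2) and 21.3% of those not called. Polymerase II phosphorylated at serine 5 covered 32.5%, 12.1% and 26.4%, the pausing factor NELF 24.0%, 10.9% and 22.5%, and SETD1A, an H3K4 methyltransferase, 18.8%, 5.75% and 8.83%. Distal regions with less CHD4 in Zfp131KO thus carried each of these 4 in wildtype less often than regions with more. ZBTB11 events lay at 2.94% (2.09 to 4.12), 2.07% (1.31 to 3.25) and 3.00% (2.62 to 3.44) in the same order, with overlapping intervals. At promoters, a wildtype H3K4me3 domain overlapped 47.6% of the 42 regions with more CHD4 (33.4 to 62.3), 84.4% of those with less (79.2 to 88.5) and 92.7% of those not called.

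SIN3A did not follow CHD4. Its median log2 fold change in Zfp131KO was -0.00 at the 451 distal regions with more CHD4 that had a value, 4.21% of them called higher and 2.22% lower, against 2.98% and 2.84% of all SIN3A regions. At the 61 distal regions with less CHD4 it was -0.08, with none called higher and 4 lower. H3K27me3, the mark of Polycomb repression, had a wildtype domain at 32.9% of promoter regions with less CHD4 and 34.6% of those not called, and at 3 of the 42 with more. Of the 98 promoter regions with less CHD4 and an H3K27me3 value, 10 were called higher and 4 lower for that mark, against 11.7% and 6.18% of all H3K27me3 regions.

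ZFP131 itself was mapped by its HA tag in induced cells kept with the 2i inhibitors, so its events come from another culture than the CHD4 libraries. Promoter regions with and without a ZFP131 event were called lower equally often, 5.47% of 695 and 5.40% of 3683, with medians of -0.31 and -0.24. None of the 695 was called higher, against 42 of the 3683. Only 33 distal regions had a ZFP131 event, of which 14 were called lower and 2 higher. All 14 lay in 1 stretch between Tubb3, the neuronal beta-tubulin gene, and Def8. Without that stretch, which was picked out after its values were seen, 19 distal regions remained, none called lower and 2 higher, near Smpd4 (2.17 ± 0.65) and 660375 bp from Pou3f3 (2.23 ± 0.54), and the median moved from -0.43 to 0.17. ZBTB11 events lay in 2326 promoter regions, 6 called higher (0.258%) and 103 lower (4.43%), against 1.75% and 6.53% of promoter regions without one. They lay in 251 distal regions, 32 called higher (12.7%) and 18 lower (7.17%), with a median of 0.38. Distal regions without a ZBTB11 event had 12.6% called higher and 10.1% lower, with a median of 0.30, so the share called higher was about the same.

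The Tubb3 to Def8 stretch, chr8:123426273-123434251, held 17 overlapping or adjoining regions, all called lower with fold changes from -2.79 to -1.78. Wildtype listed 15 events with 59.3 reads per M there and Zfp131KO 4 events with 8.15. The stretch overlapped 11 H3K27ac regions, with a median of -3.04 and 8 called lower. The only H3K27me3 region that overlapped it was called lower (-1.70 ± 0.64). In the Zbtb11KO table, which shares the wildtype libraries, 35 of 36 regions of the same stretch were called higher, with a median of 1.26. The 2 knockouts thus lay on opposite sides of the wildtype libraries in this stretch, and the difference between them was not tested.

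This stretch and 4 others were found as runs of at least 5 regions called in the same direction, each within 3000 bp of the next, so the shared direction follows from how they were chosen. The run next to Mocos, chr18:24670787-24674508, had 12 regions all called higher (1.35 to 1.67), with 12.0 listed reads per M in wildtype and 46.3 in Zfp131KO. The Zbtb11KO table gave 11 regions there, all called higher with a median of 1.55. Runs near Gdap1l1 (chr2:163461422-163464198, median 0.98) and Plekha5 (chr6:140605631-140609171, median 1.21) had 5 regions each, all called higher. They overlapped 2 H3K27ac regions and 1, in the same order, all called higher for that mark. The run near Gm52481 on chromosome Y, the most strongly covered distal site in wildtype with 516 reads, had 15 regions, 10 of them called lower with a median of -0.52.

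On chromosome 10, the interval from 58 to 68 Mb stood apart. Of its 123 CHD4 regions, 52 were called higher (42.3%) and 1 lower, and the median was 1.00, or 1.26 after the shift. The other 883 regions of chromosome 10 had a median of -0.00 with 85 called higher and 79 lower. Wildtype listed 12 events in the interval and Zfp131KO 120. Higher values included regions near starts, with a median of 0.73 over 28 regions, as well as regions away from starts and wildtype H3K4me3, with a median of 1.25 over 80 and 42 called higher. The corresponding medians elsewhere on chromosome 10 were -0.31 at promoters and 0.32 at distal regions.

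The lowest adjusted p in the interval was near Nodal, a TGF-beta family ligand gene, at chr10:61415421-61415921, with 96.4 Zfp131KO reads, no wildtype event and 2.24 ± 0.31 (adjusted p = 4.64e-10). Regions near Tet1, a gene for a methylcytosine dioxygenase (2.02 ± 0.35), near Ccdc138 (2.02 ± 0.35), near Mcu, the gene of the mitochondrial calcium uniporter (2.13 ± 0.40), and near Srgn, the gene of the proteoglycan serglycin (2.37 ± 0.45), followed. Calls were spread over many genes, with 6 of 8 regions near Col13a1, 6 of 12 near Tet1, 4 of 7 near Nodal and 4 of 13 near Reep3 called higher. The only region called lower was nearest to Hkdc1 (-2.19).

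The other targets examined were higher in the interval too. Median log2 fold changes in Zfp131KO were 0.63 for SIN3A (103 of 306 regions called higher and none lower), 0.99 for H3K27ac, 1.09 for H3K27me3 and 0.55 for H3K4me3, against -0.03, -0.04, -0.00 and -0.11 on the rest of the chromosome. In the Zbtb11KO table with its shared wildtype libraries, the 36 CHD4 regions of the interval had a median of 1.01, and 14 were called higher. The elevation had no sharp edge for CHD4, as the 16 regions from 48 to 58 Mb had a median of 1.06 with 6 called higher, and the 105 from 68 to 78 Mb a median of 0.31. From 48 to 58 Mb the medians of SIN3A (0.93) and H3K4me3 (0.82) were also above those of the interval. Those of H3K27ac (0.61) and H3K27me3 (-0.08) were below. The interval was thus higher for the active marks H3K27ac and H3K4me3 and for the repressive mark H3K27me3 alike, and the cause was not tested.

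**Figure D5:**
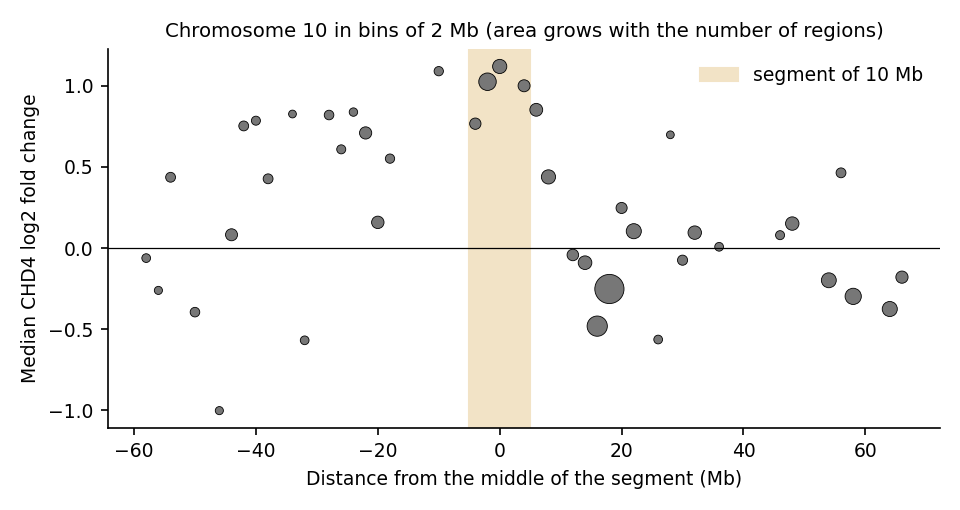
Median deposited CHD4 log2 fold change, Zfp131KO over wildtype, on the y axis, in bins of 2 Mb along chromosome 10, on the x axis as distance in Mb from the middle of the interval from 58 to 68 Mb (shaded), with point area growing with the number of regions. The bins of the interval all lie above 0.7. To the left bins lie on both sides of 0 and several of them also lie above 0.7, and farther to the right bins lie on both sides of 0.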

How the data were processed

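The submitters' processing notes name Bowtie 1.0.1, bedtools, DESeq2 1.28.1 and the genome build mm10. Per the file headers, the authors called CHD4 events with MultiGPS on pooled libraries, using 45.3 M control reads, and list a signal (pooled reads assigned to each event, before any scaling), a log2 fold against control and a score. H3K27ac, H3K4me3, H3K27me3 and polymerase II domains were called with DomainFinder of SEED, per the file headers. The authors' deposited DESeq2 tables give, per region, the mean signal, the log2 fold change and its standard error, and a p-value before and after adjustment.

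The planned count test needed counts per region and library, which the files used here do not hold, so the deposited adjusted p under 0.05 was taken. The precision is that of 2 libraries a group, with 13.7 M to 16.1 M reads each. Regions were placed on RefSeq genes of GRCm38.p6 (mm10), of which 17491 of 21896 protein-coding genes have a start in the reference. Overlapping regions were counted separately (16322 regions form 15398 groups). Named genes are the most extreme called promoter (15 each way) and distal regions (10 each way) with at least the median mean signal. Each gene entered these rankings with its region of highest mean signal. Also named, without a limit on signal, are up to 4 members of each list, the 10 events with most wildtype reads and the 5 lowest p-values of the chromosome 10 interval. For the primitive endoderm and pluripotency lists the genes of other called distal regions are named too, chosen after their values were seen. A few genes that these rules name are not reported here. The regions, gene lists and comparisons were chosen with earlier results of these data known. Scripts ran under Python 3.11.15 with pandas 2.3.3 and scipy 1.17.1, and the reading of called regions was tested on simulated data. Alternatives covered thresholds, promoter distance, event sharing, scaling, overlap with domains and, added after seeing the data, the shift to total reads, scaling by the signal fraction, regions with events in both genotypes and the Tubb3 stretch.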

Additional observations from a re-analysis of the deposited data

How the results depend on the processing

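Fold changes of single regions rest on 2 libraries a group, regions near 30 assigned reads can enter one list and miss the other, and no region had a value per library. Leaving out each library was therefore not run. No paired analysis was possible because the files give 1 value per region and comparison, without the numbered libraries. Of the values recomputed for the main comparisons, 45 kept their direction and size, 36 moved and 4 turned sign. At an adjusted p under 0.01, 584 regions were called higher and 711 lower. With mean signal at or above the median, 734 and 412 were called. After the shift to total reads, 2431 and 839 were called. That shift gave 111 promoter regions called higher and 81 lower with a median of 0.0044, in place of -0.25, 2027 distal regions called higher with a distal median of 0.56, and a median of 1.26 in the chromosome 10 interval. With events in both genotypes, 4 promoter regions were called higher and 46 lower, and 29 distal regions higher and 40 lower with a median of -0.13, in place of 0.31. There the H3K27ac median was -0.59 at promoter and -0.89 at distal regions with less CHD4. A promoter distance of 2 kb gave 78 promoter regions called higher, 500 bp gave 22, and regions within 2 kb gave 29 genes called higher. Shared events were 48.8% of wildtype and 30.1% of Zfp131KO events within 200 bp, 57.0% and 37.1% within 1000 bp, and 60.6% and 32.6% with at least 50 reads. Scaled by reads in events, shared events had medians of -0.83 at promoters and -0.66 at distal sites, and scaled by the signal fraction in the headers -0.42 and -0.25. With the region centre inside the domain, the H3K27ac median was -0.48 at promoter and -1.28 at distal regions with less CHD4. Domains then covered 46.4% (wildtype) and 28.7% (Zfp131KO) of promoter regions with less CHD4, 9.28% and 31.2% of distal regions with more, and 5.64% and 0.921% of distal regions with less. The TGF-beta and BMP list median at promoters turned from -0.29 to 0.032 with regions within 2 kb. The causes of these moves beyond fewer or other regions entering were not tested.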

Other observations

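Some further genes had several called distal regions nearby. Of 21 distal CHD4 regions nearest to Rbpj, which encodes the DNA-binding factor of Notch signalling, 6 were called higher in Zfp131KO and none lower, with a median log2 fold change of 0.70. Near Alpl, the alkaline phosphatase gene used as a stem cell marker, 4 of 7 were called higher and 2 lower. Near Frmd4b 4 of 5 were called higher, with a median of 1.86, and near Abhd2 4 of 6, with a median of 1.17. On the lower side, all 4 regions near Bend5 were called lower, with a median of -3.35, as were 5 of 7 near Cdc42ep1, with a median of -1.68, and 4 of 6 near Niban2, with a median of -1.24. Near the beta-actin gene Actb 3 of 12 were called lower, with a median of -0.65. These genes were listed by their number of calls, so the counts are a description. Over all distal regions near genes, 11.5% were called higher and 10.3% lower.

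By chromosome, the distal median was above the promoter median on each of the 19 autosomes and on chromosome X. The distal medians ran from 0.15 on chromosome 19 to 0.49 on chromosome 3, and the promoter medians from -0.34 on chromosome 17 to -0.05 on chromosome X. The X chromosome had 69 regions, of which 1 was called higher and 6 lower, against 8.05% and 8.08% of all regions. The share called lower on X was thus near that of all regions.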
